A study of Danio rerio with 80 samples.

Results

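The comparison described here set 4 libraries of zebrafish embryos exposed to 0.133 µM 8-methylbenzo[a]pyrene (8-MBaP) against 4 libraries of control embryos, both collected at 48 hours post-fertilization (hpf). These 8 libraries were chosen by compound, concentration and time alone, out of the 80 libraries of the series. Besides 8-MBaP, those libraries cover its isomer 6-methylbenzo[a]pyrene (6-MBaP) and the unsubstituted parent benzo[a]pyrene (BaP), with a control, at 48 and 72 hpf. Each compound was given at 3 concentrations in 10-fold steps, of which 0.133 µM is the lowest and 13.3 µM the highest. The lowest concentration was picked by the study as one at which 8-MBaP left morphology unaffected, and 48 hpf as a time before malformations are seen. The question put to these libraries is therefore which transcripts differed at an exposure with no visible effect.

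All embryos were of the 5D wild-type strain and were placed singly in wells at 6 hpf. The exposed group was dosed with 8-MBaP in dimethyl sulfoxide (DMSO), and the control group received DMSO alone. Each library is a pool of 6 whole living embryos, taken without regard to morphology, and the pools of each group with the most RNA were sequenced. All 4 pools of a group came from 1 plate, so the plate and the exposure cannot be told apart, and the p-values measure the spread between pools of 1 plate. RNA was read at the 3′ end of polyadenylated transcripts by BRB-seq, a method that barcodes many samples and makes 1 joint library of them. In whole embryos, fewer cells of a type and less RNA per cell cannot be told apart, and near-identical genes of 1 family may share reads.

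The exposed libraries held 7015996 to 7511380 counts and the control libraries 5353245 to 6006143, with no overlap between groups. Normalization factors (TMM, the trimmed mean of M values) were 0.983 to 1.03 in exposed and 0.964 to 1.01 in control libraries. On the first principal component of these 8 libraries, which held 18.12% of the variance, the exposed pools lay between 11.25 and 26.29. Control pools A and B lay at -53.34 and -34.38 on it, and control pools C and D at 14.53 and 1.927. Markers of the tissues of a whole embryo were present in both groups. The summed level of 22 tested skeletal muscle genes was 421340 to 457320 normalized counts in exposed and 425840 to 452490 in control pools. Exocrine pancreas genes were near the limit of detection, at 57.8 to 72.2 in exposed and 53.9 to 103.8 normalized counts in control pools. A normalized count is a count scaled to a library of 6475752 counts after TMM.

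The aryl hydrocarbon receptor (AHR) is a transcription factor that is held in the cytoplasm until it binds a ligand, many polycyclic aromatic hydrocarbons among them. It then enters the nucleus, pairs with ARNT and switches on genes that oxidize and conjugate the ligand, the CYP1 monooxygenases above all. Zebrafish carry several AHR genes, of which ahr2 acts most like the mammalian receptor, and AHR repressor and TIPARP genes are induced as brakes on the pathway.

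Of 17794 genes tested, 77 (0.433%) differed between exposed and control embryos by the quasi-likelihood test of edgeR and are called below. The threshold was 0.05 on the p-value adjusted by Benjamini and Hochberg. Transcripts of 34 genes (0.191%) rose and those of 43 genes (0.242%) fell. Called rises and called falls differed in size. The rises had a median absolute log2 fold change (log2FC) of 0.975 and reached 6.10, with 17 of 34 at 1 or more. The falls had a median absolute log2FC of 0.503, and 4 of 43 were at 1 or more. Genes that fell were the more abundant, with a median control level of 1470 normalized counts against 65.8 for genes that rose and 35.9 for all genes tested. Whether the difference in size follows from this difference in abundance was not tested. In 32 of the 34 rises every exposed pool was above every control pool, where 2.28% of all genes tested had such a gap. In 40 of the 43 falls every exposed pool was below every control pool, against 2.46% of all genes tested, and 4.74% of all genes tested did not overlap in either direction. The genes were called on these same pools, so a high share of gaps among them follows from the selection and is not separate support.

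The number of calls depended on single libraries. It was 43 without control pool A, 44 without exposed pool A and 50 without exposed pool B, and 56 to 86 without any of the others. With control pools A and B both left out, 31 genes were called, and 13 of the 34 rises and 13 of the 43 falls were among them. In that fit the median log2FC was 1.02 over the 34 rises and -0.469 over the 43 falls. With all pools the median absolute values were 0.975 and 0.503, and some genes named below shrank by more. Whether calls were lost through the smaller number of control pools was not tested. Leaving out each of the 8 pools in turn, 15 rises and 12 falls were called in all 8 fits. The 15 rises were cyp1a, cyp1b1, foxq1a, PKHD1L1, sult6b1, si:ch211-207n23.2, si:ch211-285j16.4, si:dkey-247k7.2, ENSDARG00000109310, ptgdsb.1, ptgdsb.2, cyb5a, AQP8, ugt1b5 and hbbe3. The 12 falls were krt4, cyt1, krt91, psmd8, apoa4b.1, lgals3bp.1 and the lens crystallin genes crygm2d12, crygm2d13, crygm2d14, crygm2d18, crygm2d19 and crygm2d20. Of these rises and falls, si:ch211-285j16.4, AQP8, hbbe3, cyt1, lgals3bp.1 and apoa4b.1 were not called without control pools A and B. Their edgeR adjusted p-values were then 0.23, 0.0535, 0.0543, 0.116, 0.0876 and 0.585. Their log2FC values in that fit were 3.22, 0.92, 0.78, -0.36, -2.43 and -0.31, in the same order.

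The AHR pathway held the largest rises. Of 17 tested genes of the pathway, 5 rose and none fell, where 0.191% of all genes tested rose and 0.242% fell. The median log2FC was 0.59 against 0.00604 over all genes tested. The members were chosen with earlier results of these data known, so neither the count nor the median is independent evidence of a shift. Without foxq1a, foxq1b, wfikkn1 and ccl27a the median of the other 13 was 0.09. The 5 were cyp1a, cyp1b1, cyp1c2, foxq1a and the receptor gene ahr2. The 5 called genes summed to a mean of 2899 normalized counts in exposed and 151 in control pools, most of it cyp1a in exposed pools. As these genes were picked by their calls in the same pools, the gap in the sum is not further evidence. The 12 genes not called summed to 1776 to 1952 in exposed and 1650 to 1859 in control pools, with overlap and a median log2FC of 0.04.

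Transcripts of cyp1a (ENSDARG00000098315), the monooxygenase most used as a sign of AHR activity, stood at 1978, 2107, 2338 and 2511 normalized counts in exposed pools A to D and at 29.4, 35.2, 37.2 and 28.0 in control pools A to D. The lowest exposed pool was far above the highest control pool, and the means differed 68.9-fold (log2FC 6.10 ± 0.17 SE, edgeR adjusted p = 1.29e-39). Transcripts of cyp1b1 (ENSDARG00000068934), a related monooxygenase, were at 271, 249, 259 and 273 normalized counts in exposed pools and at 22.0, 16.0, 40.5 and 23.3 in control pools. Exposed pools were nearly level, and control pool C was the highest of the controls (log2FC 3.36 ± 0.21 SE, edgeR adjusted p = 1.74e-20). Transcripts of cyp1c2 (ENSDARG00000101789), a CYP1 gene of fishes, were few, at 15.1, 17.2, 30.4 and 23.7 normalized counts in exposed pools and 6.12, 0, 2.25 and 8.16 in control pools. The groups did not overlap (log2FC 2.38 ± 0.49 SE, edgeR adjusted p = 0.00534), and the call was lost without control pool B (log2FC 1.95, adjusted p = 0.06). The remaining family member on the list, cyp1d1 (ENSDARG00000035569), overlapped between groups at 24.3 to 44.3 normalized counts in exposed and 33.8 to 47.8 in control pools (log2FC -0.23 ± 0.25 SE, edgeR adjusted p = 0.86).

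Transcripts of foxq1a (ENSDARG00000030896), a forkhead transcription factor, stood at 237, 261, 319 and 318.5 normalized counts in exposed pools and at 35.5, 46.9, 23.7 and 32.7 in control pools. The means differed 8.19-fold (log2FC 3.02 ± 0.18 SE, edgeR adjusted p = 1.3e-21). Its paralog foxq1b (ENSDARG00000055395) overlapped between groups, with 98.9 to 149.2 normalized counts in exposed and 49.0 to 105.6 in control pools (log2FC 0.59, edgeR adjusted p = 0.26). The receptor transcript ahr2 (ENSDARG00000021833) was at 108, 98.0, 100.5 and 82.8 normalized counts in exposed pools and 52.7, 61.9, 63.1 and 38.5 in control pools. The gap between groups was small but complete (log2FC 0.85 ± 0.18 SE, edgeR adjusted p = 0.00787). The ahr2 call was lost without exposed pool A (log2FC 0.79, adjusted p = 0.0508) and without control pool D (log2FC 0.71, adjusted p = 0.0675).

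The other 12 genes of the pathway did not pass the test. Transcripts of tiparp (ENSDARG00000061841), which in mammals encodes a mono-ADP-ribosyltransferase that restrains the AHR, were at 184, 211.5, 178 and 204 normalized counts in exposed pools and 158, 117, 123 and 142 in control pools. The groups did not overlap, but the adjusted p was 0.0729 by edgeR (log2FC 0.53 ± 0.14 SE). The repressor transcript ahrra had no read in any of the 8 libraries. The receptor's partners arnt2 (ENSDARG00000103697) and arnt (ENSDARG00000021855) had log2FC values of 0.09 ± 0.09 and 0.77 ± 1.00 SE, the second on fewer than 7 normalized counts in every pool. The chaperone gene aip (ENSDARG00000104437), whose product holds the unliganded receptor, was at 221 to 310.4 normalized counts in exposed and 287 to 354 in control pools (log2FC -0.26 ± 0.11 SE, edgeR adjusted p = 0.423). The nqo1 transcript (ENSDARG00000010250), a quinone reductase under AHR control in mammals, showed a log2FC of 0.00 ± 0.16 SE, and the sign of this value changed between settings. Transcripts of wfikkn1 (ENSDARG00000101364) had no read in any control pool and 0.837, 5.16, 6.45 and 5.46 normalized counts in exposed pools A to D. The exposed mean was 5.22 times a floor of 3 counts over the control group (0.857 normalized counts), and exposed pool A lay below that floor (edgeR adjusted p = 0.0594). The chemokine gene ccl27a (ENSDARG00000058570) likewise had no control read, and 6.70, 2.58, 1.84 and 2.73 normalized counts in exposed pools, with a mean 4.04 times that floor (edgeR adjusted p = 0.172). The skeletal and fin regulator sox9b could be matched only through human SOX9, which names a pair of genes that were not told apart. The first (ENSDARG00000003293) was at 7.54, 6.02, 11.98 and 10.0 normalized counts in exposed pools and 17.2, 24.5, 12.4 and 15.2 in control pools. It was the only gene of the pathway list with every exposed pool below every control pool, and it did not pass the test (log2FC -0.96 ± 0.54 SE, edgeR adjusted p = 0.608). The second SOX9 gene (ENSDARG00000043923) overlapped between groups, with 248 to 329 normalized counts in exposed and 238 to 325 in control pools (log2FC -0.07, edgeR adjusted p = 0.919).

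**Figure D1:**
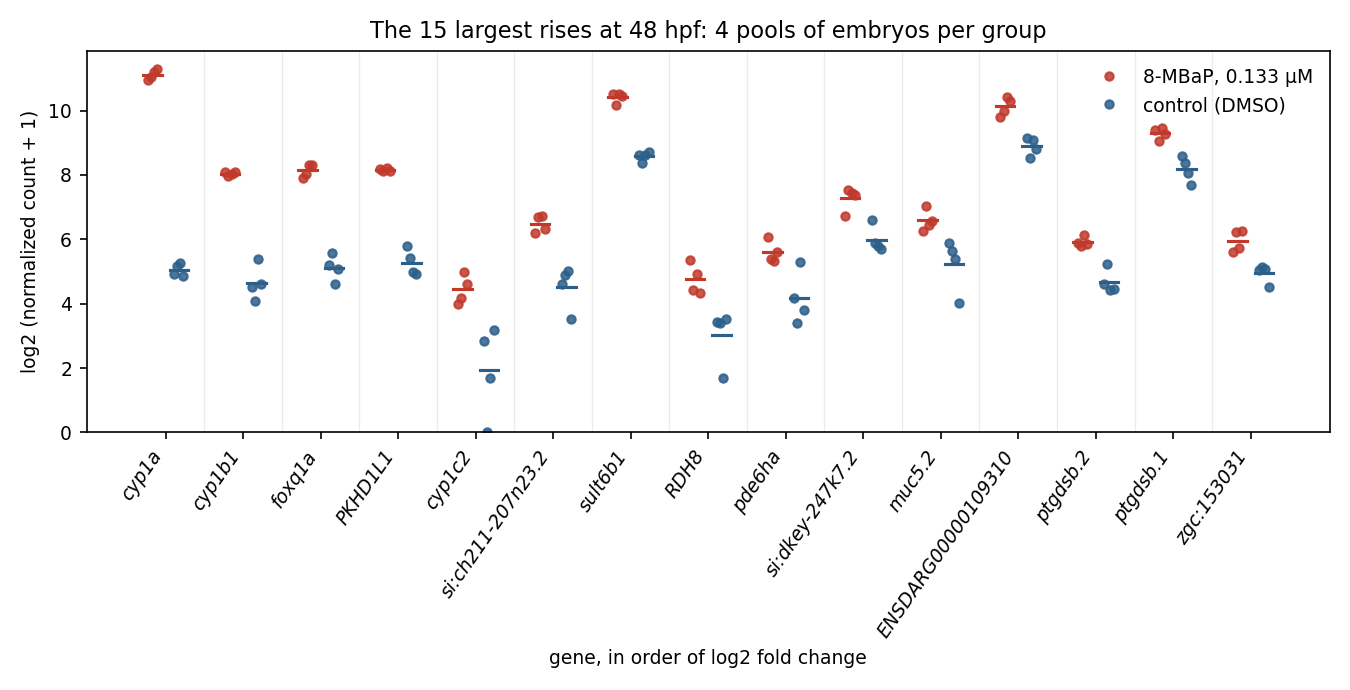
Normalized counts, as log2 (count + 1), of the 15 genes with the largest rises among called genes of at least 20 normalized counts, in 4 exposed pools (left of each gene) and 4 control pools (right), with the mean of each group as a bar. Points of cyp1a lie 68.9-fold apart by their means, and the groups do not overlap in any of the 15 genes.

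Several enzyme genes outside the pathway list rose as well, among them genes for conjugating enzymes. Transcripts of sult6b1 (ENSDARG00000086826), a cytosolic sulfotransferase, were at 1451, 1157, 1466 and 1389 normalized counts in exposed pools and 391.9, 333, 391 and 415 in control pools. The separation was 3.57-fold between means (log2FC 1.84 ± 0.10 SE, edgeR adjusted p = 5.27e-22). Transcripts of ugt1b5 (ENSDARG00000089507), a glucuronosyltransferase, were at 235, 280.3, 323 and 259 normalized counts in exposed pools and 212, 146, 125 and 133 in control pools. Control pool A lay closest to the exposed pools (log2FC 0.84 ± 0.15 SE, edgeR adjusted p = 0.00052). Transcripts of cyb5a (ENSDARG00000098589), cytochrome b5, which passes electrons to P450 enzymes, averaged 283 ± 24.5 normalized counts in exposed and 154 ± 7.56 in control pools (SD, n = 4 each), with log2FC 0.87 ± 0.14 SE and edgeR adjusted p = 0.000117.

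The pi-class glutathione transferase gene gstp1.2 (ENSDARG00000104068) was the most abundant of the rises, at 10330, 9797, 11410 and 11660 normalized counts in exposed pools and 7973, 7181, 7877 and 8262 in control pools. This was a 1.38-fold difference of means (log2FC 0.47 ± 0.10 SE, edgeR adjusted p = 0.00735), and the call was lost without control pool B. The uncharacterized gene ENSDARG00000109310 had 898, 1021, 1373 and 1265 normalized counts in exposed pools and 568, 370.2, 545 and 443 in control pools (log2FC 1.24 ± 0.12 SE, edgeR adjusted p = 1.62e-11). In RefSeq gene order, this gene and gstp1.2 stand 2 protein-coding genes apart. The dehydrogenase transcript named through human DHRS13 (ENSDARG00000098746) rose by a log2FC of 0.91 ± 0.22 SE (edgeR adjusted p = 0.022) and kept its call in 3 of 8 fits with 1 pool left out. Of 19 tested genes on the list of antioxidant and conjugating enzymes, none was called (median log2FC 0.05). The listed names gstp1, gstp2 and txn matched no gene and were not tested as members. Neither gstp1.2, a pi-class gene that rose, nor sult6b1 is among the 19. Zebrafish have a pair of genes for NRF2, the main activator of antioxidant genes. The nfe2l2b transcript (ENSDARG00000089697) was at 10.1, 27.5, 32.3 and 12.7 normalized counts in exposed pools and 9.80, 6.401, 2.25 and 3.50 in control pools. The groups did not overlap, with exposed pool A close to control pool A, and the 3.76-fold difference of means was not called (log2FC 1.89 ± 0.54 SE, edgeR adjusted p = 0.104). The nfe2l2a transcript (ENSDARG00000042824) overlapped between groups at 442 to 536 normalized counts in exposed and 309.8 to 444 in control pools (log2FC 0.34 ± 0.11 SE, edgeR adjusted p = 0.233).

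Other rises were of genes with different or uncertain roles. The transcript named through human PKHD1L1 (ENSDARG00000091116), whose mouse counterpart encodes a coat protein of hair cell stereocilia, was at 289.7, 275, 295 and 279 normalized counts in exposed pools and 53.9, 41.6, 30.4 and 29.2 in control pools. Exposed pools differed little from each other, and the means were 7.35-fold apart (log2FC 2.88 ± 0.17 SE, edgeR adjusted p = 6.35e-22). The lipocalin-type prostaglandin D2 synthase genes ptgdsb.1 and ptgdsb.2 rose, and they are direct neighbours in RefSeq gene order. The ptgdsb.1 transcript (ENSDARG00000027088) was at 676, 529.6, 704 and 619 normalized counts in exposed pools and 386, 332, 265 and 206 in control pools (log2FC 1.09 ± 0.15 SE, edgeR adjusted p = 9.5e-07). The ptgdsb.2 transcript (ENSDARG00000071626) averaged 59.6 ± 6.47 normalized counts in exposed and 25.2 ± 7.49 in control pools (SD, n = 4 each), with log2FC 1.23 ± 0.26 SE and edgeR adjusted p = 0.00611. Reads of these neighbours, whose sequences were not compared, may have been split between them.

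Uncharacterized genes rose as well. Transcripts of si:ch211-207n23.2 (ENSDARG00000097157) were at 72.8, 103.2, 104 and 79.2 normalized counts in exposed pools and 23.3, 28.8, 31.5 and 10.5 in control pools (log2FC 1.92 ± 0.28 SE, edgeR adjusted p = 7.12e-06). Transcripts of si:dkey-247k7.2 (ENSDARG00000103199) were at 105.5, 186, 172 and 166.5 normalized counts in exposed pools and 95.5, 57.6, 54.1 and 51.3 in control pools. Exposed pool A and control pool A of this gene lay close to each other, and the other pools were well apart (log2FC 1.29 ± 0.18 SE, edgeR adjusted p = 2.93e-06). The embryonic beta globin gene hbbe3 (ENSDARG00000038147) was at 2248, 1690, 2133 and 1597 normalized counts in exposed pools and 945, 1108, 1375 and 876 in control pools (log2FC 0.83 ± 0.15 SE, edgeR adjusted p = 0.000541). It was 1 of 19 tested erythroid genes to be called (median log2FC 0.14), and globin genes may share reads. The listed globin names hbbe1.1, hbbe1.2, hbbe1.3, hbbe2 and hbba1 matched no gene and were not tested as members.

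The mucin gene muc5.2 (ENSDARG00000058556) had 76.2, 131.5, 86.7 and 94.6 normalized counts in exposed pools and 58.8, 49.1, 40.5 and 15.2 in control pools (log2FC 1.25 ± 0.26 SE, edgeR adjusted p = 0.00661). Its call was lost without exposed pool B (log2FC 1.07, adjusted p = 0.0794) and without control pool D (log2FC 0.98, adjusted p = 0.0675). Some of the larger rises rested on few counts and on single pools. The transcripts named through human MAFG (a small Maf transcription factor) and RDH8 (a retinol dehydrogenase of photoreceptors), and the cone phosphodiesterase subunit gene pde6ha, had log2FC values of 2.27, 1.76 and 1.32, and adjusted p-values of 0.0343, 0.0473 and 0.034 by edgeR. MAFG was called in 2, RDH8 in 1 and pde6ha in 2 of the 8 fits that left out 1 pool. The gene pde6ha was 1 of 26 tested photoreceptor genes to be called, and the median of that list was a log2FC of -0.14.

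Smaller rises included dlx3b (ENSDARG00000014626), a homeobox gene of fin fold, ear and olfactory placodes. It was at 157, 159, 195.4 and 197 normalized counts in exposed pools and 119, 114, 129.5 and 117 in control pools (log2FC 0.56 ± 0.13 SE, edgeR adjusted p = 0.0151). The groups did not overlap, yet the dlx3b call was lost without exposed pool C (log2FC 0.51, adjusted p = 0.0811), exposed pool D (log2FC 0.51, adjusted p = 0.0689), control pool A (log2FC 0.56, adjusted p = 0.052) or control pool B (log2FC 0.54, adjusted p = 0.0641). Among 28 tested genes of fin fold structure and regulation, dlx3b was the only rise and and2 the only fall, and the median log2FC was 0.05. The collagen gene named through human COL12A1 was the only call among 26 collagen genes, with log2FC 0.37 and edgeR adjusted p = 0.0496, and it was called in 1 of 8 fits with a pool left out. The ribosomal protein gene rps27.2 rose by a log2FC of 0.41 (edgeR adjusted p = 0.022), which was 0.22 without control pools A and B.

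The remaining rises are given more briefly, with adjusted p-values by edgeR. The uncharacterized gene si:ch211-285j16.4, with 8.597 to 13.8 normalized counts in exposed and 1.07 to 1.23 in control pools, had a log2FC of 3.22 (adjusted p = 0.00991). The aquaporin gene named through human AQP8 was at 0.87 (adjusted p = 0.00433), the PARP1-binding protein gene parpbp at 0.86 (adjusted p = 0.0365) and zgc:153031 at 1.04 (adjusted p = 0.0337). The genes named through human ADK (adenosine kinase) and IGFBP5 (an insulin-like growth factor binding protein) were at 0.58 and 0.53 (adjusted p = 0.00505 and 0.0388). The proteoglycan gene vcanb, the COP9 signalosome gene gps1 and the transcription factor gene tcf20 were at 0.42, 0.49 and 0.50 (adjusted p = 0.0183, 0.0151 and 0.0496). The groups of tcf20 overlapped, and its value was 0.32 without control pools A and B. Another gene given by its ID, ENSDARG00000114870, for which no symbol was found, was at 0.61 (adjusted p = 0.0307), and its groups overlapped. Of 8 fits with a pool left out, tcf20, parpbp and zgc:153031 kept their calls in 2, and IGFBP5 and ENSDARG00000114870 in 3. The counts were 4 for vcanb, 5 for gps1, 7 for ADK and 8 for AQP8 and si:ch211-285j16.4.

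Epidermal keratin genes were among the falls. The most abundant of all falls, krt4 (ENSDARG00000017624), a keratin of the outer epidermal layer, was at 54340, 54650, 52570 and 53540 normalized counts in exposed pools and 61980, 70490, 64790 and 70040 in control pools. Every exposed pool lay below every control pool, and the mean fell by 19.5% (log2FC -0.31 ± 0.06 SE, edgeR adjusted p = 0.00179). The type I keratin gene cyt1 (ENSDARG00000092947) was at 35280, 34080, 30300 and 33110 normalized counts in exposed pools and 42910, 44350, 41480 and 44080 in control pools (log2FC -0.38 ± 0.08 SE, edgeR adjusted p = 0.00428). The keratin gene krt91 (ENSDARG00000036830) was at 7677, 6943, 5818 and 7603 normalized counts in exposed pools and 10220, 10050, 9772 and 9698 in control pools. The krt91 controls were nearly level (log2FC -0.50 ± 0.08 SE, edgeR adjusted p = 0.000174). In RefSeq gene order 1 protein-coding gene stands between cyt1 and krt91.

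The keratin gene krt15 (ENSDARG00000036840) was at 114, 164, 159.5 and 188 normalized counts in exposed pools and 241, 247.5, 267 and 254 in control pools (log2FC -0.69 ± 0.16 SE, edgeR adjusted p = 0.0219), and kept its call in 2 of 8 fits with a pool left out. Of 20 tested genes on the list of epidermal keratins and other skin genes, 4 fell and none rose, with a median log2FC of -0.15. Over all genes tested, 0.242% fell and 0.191% rose, and this list too was chosen with earlier results of these data known. The 4 called genes summed to 88840 to 97409 normalized counts in exposed pools and 115351 to 125141 in control pools. None of the 4 overlapped between groups on its own, so the gap in their sum was given by their selection. The other 16 genes summed to 44867 to 56647 in exposed and 45832 to 51893 in control pools, with overlap and a median log2FC of -0.03, so the list held no fall in sum beyond its called members. The desmosomal plakophilin gene pkp1b (ENSDARG00000052705) was at 78.7, 50.7, 73.8 and 56.4 normalized counts in exposed pools and 120.0, 135.5, 127 and 103 in control pools (log2FC -0.90 ± 0.19 SE, edgeR adjusted p = 0.00611), and its call was lost without exposed pool B (log2FC -0.80, adjusted p = 0.0593).

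The annexin genes anxa1c (ENSDARG00000104359) and anxa2a (ENSDARG00000003216), which encode calcium-dependent membrane-binding proteins, fell by log2FC -0.44 and -0.34 (edgeR adjusted p = 0.0183 and 0.0365). They were called in 4 and 2 of the 8 fits with a pool left out. The actinodin gene and2 (ENSDARG00000079302), which encodes a structural protein of the fibres that stiffen the fin fold, was at 1477, 1957, 1725 and 1881 normalized counts in exposed pools and 2443, 2495, 2539 and 2112 in control pools. Exposed pool A was the lowest (log2FC -0.45 ± 0.10 SE, edgeR adjusted p = 0.0113). The and2 call was lost without exposed pool A (log2FC -0.37, adjusted p = 0.14) and without control pool A, B or C (log2FC -0.43, -0.43 and -0.41, adjusted p = 0.0561, 0.0503 and 0.0548). The carbonic anhydrase gene ca15a (ENSDARG00000015654), expressed in proton-secreting ionocytes of the skin, was the only call among 20 ionocyte genes, with 82.9, 69.6, 63.6 and 70.07 normalized counts in exposed pools and 114, 131, 114 and 147 in control pools (log2FC -0.82 ± 0.20 SE, edgeR adjusted p = 0.0321). It kept its call in 2 of 8 fits.

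**Figure D2:**
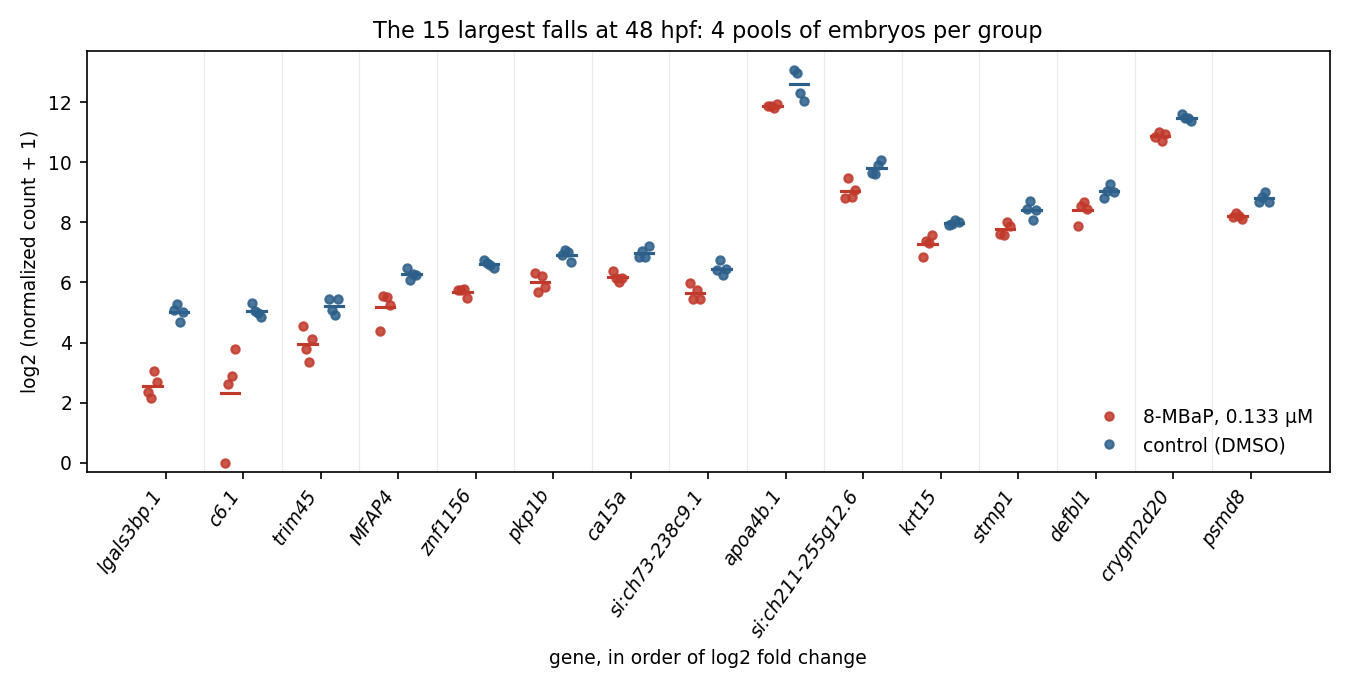
Normalized counts, as log2 (count + 1), of the 15 genes with the largest falls among called genes of at least 20 normalized counts, in 4 exposed pools (left of each gene) and 4 control pools (right), with the mean of each group as a bar. The groups do not overlap in any of the 15 genes, and control pools of apoa4b.1 spread from 4192 to 8508.

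Genes of crystallins, the proteins that fill the fibre cells of the lens, fell as well. Of 41 tested lens genes, 6 fell and none rose, 37 had a negative log2FC, and the median was -0.28. Over all genes tested, 0.242% fell and 50.7% had a positive log2FC. Members of the lens list were chosen with earlier results of these data known. The 35 lens genes not called summed to 73366 to 81339 normalized counts in exposed pools and 89363 to 100024 in control pools, with no overlap. All 6 called genes were gamma crystallin genes of the crygm2d cluster, a group of neighbours of 1 family whose sequences were not compared. Reads may have been shared among them, so the 6 calls cannot be taken as separate measurements. All 21 tested crygm2d genes had a negative log2FC, between -0.64 and -0.18, with a median of -0.34. They summed to 69000 to 83250 normalized counts in exposed and 91650 to 112200 in control pools. Any of them among the 35 lens genes not called may share reads with the called genes. The sum of those 35 thus does not show a fall beyond the cluster.

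The gene crygm2d18 (ENSDARG00000073750) was at 3085, 2920, 2950 and 3067 normalized counts in exposed pools and 3890, 3816, 4798 and 4287 in control pools (log2FC -0.48 ± 0.09 SE, edgeR adjusted p = 0.00129). The largest called fall in the cluster was that of crygm2d20 (ENSDARG00000091148), at 1829, 2038, 1659 and 1944 normalized counts in exposed pools and 3119, 2847, 2850 and 2635 in control pools. Its mean fell by 34.8% (log2FC -0.62 ± 0.10 SE, edgeR adjusted p = 0.000133). Outside the fixed lens list, the genes named through human CRYGN (ENSDARG00000030411), another gamma crystallin, and LIM2 (ENSDARG00000015445), a membrane protein of lens fibres, fell by log2FC -0.41 and -0.35 (edgeR adjusted p = 0.0109 and 0.0302). They kept their calls in 4 and 3 of 8 fits with a pool left out.

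Immune, lipid transport and neural genes gave a few falls each. Transcripts of lgals3bp.1 (ENSDARG00000040528), a galectin-3-binding protein gene, were at 4.19, 3.44, 7.38 and 5.46 normalized counts in exposed pools and 33.1, 38.4, 24.8 and 31.5 in control pools. This was the largest fall by log2FC (-2.62 ± 0.52 SE, edgeR adjusted p = 0.00295), and it was called in all 8 fits with a pool left out. Without control pools A and B its log2FC was -2.43 and it was not called (edgeR adjusted p = 0.0876). The same transcript averaged 8.39 ± 3.09 normalized counts in BaP pools and 10.9 ± 4.53 in 6-MBaP pools at 0.133 µM (SD, n = 4 each), so control pools stood above all 3 compounds. The lysozyme gene lyz (ENSDARG00000057789), a marker of neutrophils and macrophages, was at 438, 449, 504 and 501 normalized counts in exposed pools and 497, 941, 718 and 606.5 in control pools. The groups overlapped (log2FC -0.55 ± 0.13 SE, edgeR adjusted p = 0.0164), and without control pool B the log2FC was -0.36 with an adjusted p of 0.282. These were the calls among 17 tested myeloid and immune genes, whose median log2FC was -0.10. The listed names mpx, mpeg1.1, cpa5 and mfap4.1 matched no gene, so the 17 do not cover them.

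The other falls with an absolute log2FC of 1 or more rested on low counts. The complement gene c6.1 (ENSDARG00000093052) was at 0, 5.16, 6.45 and 12.7 normalized counts in exposed pools and 39.2, 32.0, 30.4 and 28.0 in control pools (log2FC -2.41 ± 0.61 SE, edgeR adjusted p = 0.0463), and was called in 1 of 8 fits with a pool left out. The ubiquitin ligase gene trim45 and the gene named through human MFAP4, a microfibril-associated protein, had log2FC values of -1.26 and -1.05 (edgeR adjusted p = 0.04 and 0.0337) and kept their calls in 2 and 3 of these fits. As the listed myeloid name mfap4.1 matched no gene, the gene named through MFAP4 was not counted among the myeloid and immune genes. The zinc finger gene znf1156 fell by log2FC -0.93 (edgeR adjusted p = 0.031), with 1 call in 8 fits.

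The apolipoprotein gene apoa4b.1 (ENSDARG00000040298), expressed in the yolk syncytial layer and intestine, was at 3713, 3705, 3587 and 3922 normalized counts in exposed pools and 8508, 8038, 5103 and 4192 in control pools. The fitted fall was a log2FC of -0.79 ± 0.13 SE (edgeR adjusted p = 0.000113), but control pools A and B were far above C and D, and without A and B the log2FC was -0.31 and not called. The gene named through human FABP1 (ENSDARG00000059227), a fatty acid binding protein of liver and gut, was at 4733, 4101, 5338 and 5253 normalized counts in exposed pools and 6252, 6343, 6484 and 6801 in control pools (log2FC -0.41 ± 0.10 SE, edgeR adjusted p = 0.0219). FABP1 kept its call in 3 of 8 fits with a pool left out. The genes apoa4b.1 and FABP1 were the calls among 26 tested apolipoprotein and yolk layer genes (median log2FC -0.11). The genes named through human FABP7, of radial glia, and STMN1, a microtubule regulator of neurons and dividing cells, were the calls among 27 brain genes, at log2FC -0.56 and -0.40 (edgeR adjusted p = 0.00428 and 0.0155). Without control pools A and B these were -0.26 and -0.25, and neither was called.

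The proteasome subunit genes psmd8 and psmc6 fell. The psmd8 transcript (ENSDARG00000020454) was at 285.5, 319.8, 295 and 278.5 normalized counts in exposed pools and 410.3, 456, 513 and 405 in control pools (log2FC -0.60 ± 0.11 SE, edgeR adjusted p = 0.00179), and psmc6 had a log2FC of -0.53 (adjusted p = 0.015). The ribosomal protein genes rps23, rps24 and rpl22l1 each fell by about the same amount, with log2FC -0.33 and edgeR adjusted p-values of 0.0151, 0.0157 and 0.022. The log2FC of rps24 was -0.15 without control pools A and B. With a pool left out, psmc6, rps23 and rps24 kept their calls in 4 and rpl22l1 in 3 of 8 fits. These proteasome and ribosome genes were picked out after their values had been seen.

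The remaining falls were in genes of varied roles, by the same edgeR test. The uncharacterized gene si:dkey-65b12.6 (ENSDARG00000076830) was at 231, 277, 312 and 381 normalized counts in exposed pools and 427, 483, 498 and 374 in control pools. Its groups overlapped through exposed pool D and control pool D (log2FC -0.57 ± 0.13 SE, adjusted p = 0.0191), and it kept its call in 4 of 8 fits with a pool left out. The beta-defensin-like gene defbl1 and the alcohol dehydrogenase gene adh8b had log2FC values of -0.62 and -0.58 (adjusted p = 0.00471 and 0.00922). The genes stmp1, of a small mitochondrial protein, gabarapb, of autophagosome formation, and trappc1, of vesicle transport, were at -0.65, -0.42 and -0.49 (adjusted p = 0.00428, 0.0095 and 0.00787). The genes dad1, of the oligosaccharyltransferase, and ngs, of the notochord, were at -0.31 and -0.42 (adjusted p = 0.0378 and 0.0273). With a pool left out, dad1 kept its call in 1 and ngs in 3 of 8 fits, and the ngs groups overlapped. The uncharacterized genes si:ch73-238c9.1, si:ch211-255g12.6 and zgc:123103 were at -0.81, -0.74 and -0.44 (adjusted p = 0.0182, 0.00505 and 0.0104). Apart from dad1 and ngs, these remaining falls kept their calls in 4 to 7 of the 8 fits.

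**Figure D3:**
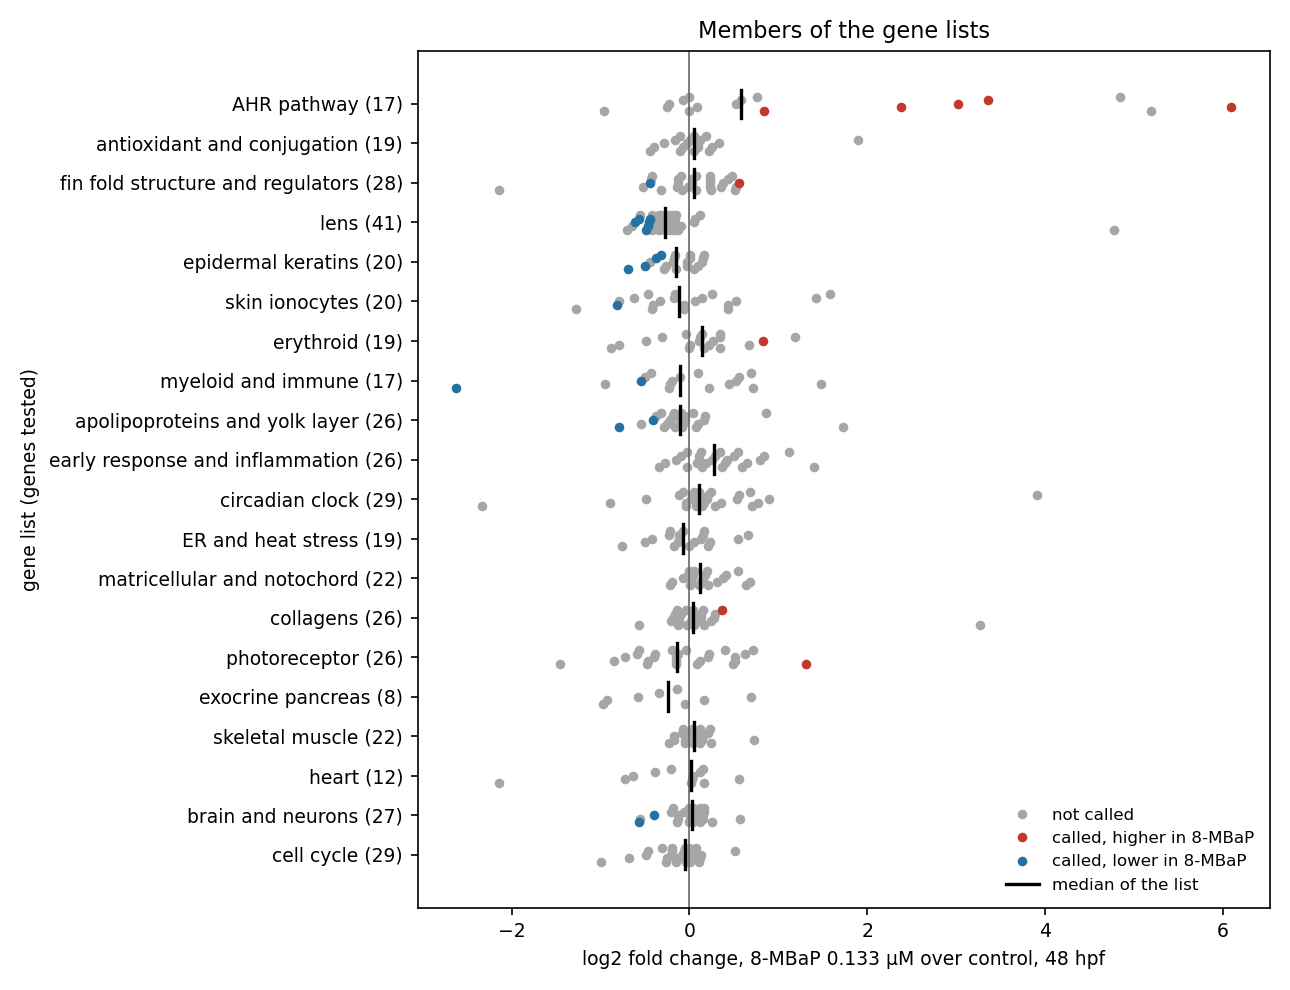
Log2FC of every tested member of the gene lists shown, 8-MBaP at 0.133 µM over control at 48 hpf, with called members in red (higher) or blue (lower), the rest in grey, and the list median as a bar. Members of the AHR pathway reach 6.10, and 37 of 41 lens genes lie below 0, where 50.7% of all genes tested lie above 0.

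The other lists shown held no call. Of 26 early response and inflammation genes, 20 had a positive log2FC, against 50.7% of all genes tested, with a median of 0.27. In 4 of the 26 every exposed pool was above every control pool, against 2.28% of all genes tested. Members of these lists too were chosen with earlier results of these data known, so such figures are not independent evidence of a shift. The stress-induced transcription factor gene atf3 was at 60.8 to 70.33 normalized counts in exposed and 22.5 to 46.5 in control pools (log2FC 0.84 ± 0.25 SE, edgeR adjusted p = 0.125). The antiproliferative gene btg2 overlapped between groups (log2FC 0.40 ± 0.13 SE, edgeR adjusted p = 0.196). The circadian clock (29 genes, median log2FC 0.11) and matricellular and notochord genes (22 genes, 0.12) lay above 0 in the median, and none was called. The matricellular gene ccn2a was at 159 to 184 normalized counts in exposed and 81.1 to 154 in control pools (log2FC 0.55, edgeR adjusted p = 0.136), and the growth factor gene igf2b of the same list at 311 to 366 in exposed and 231 to 287 in control pools (log2FC 0.38, edgeR adjusted p = 0.233). The clock genes of lowest p, the one named through human CLOCK and tefb, had under 18 normalized counts in every pool, and tefb had no read in control pools. Medians were -0.07 for 19 genes of endoplasmic reticulum and heat stress, -0.05 for 29 cell cycle genes, 0.05 for 22 skeletal muscle genes, 0.02 for 12 heart genes and -0.24 for 8 exocrine pancreas genes. The genes of lowest p on these lists also missed the threshold by edgeR. They were the chaperone genes pdia4 (log2FC -0.42, adjusted p = 0.168) and hsp70.3 (-0.76, 0.418), the cell cycle genes ccne2 (-0.47, 0.156) and cdk1 (-0.27, 0.422), the muscle genes myhz1.2 (0.23, 0.334) and pvalb2 (-0.18, 0.367), the heart genes tbx5a (-2.14, 0.485) and gata5 (0.56, 0.531) and the trypsinogen genes prss59.1 (-0.92, 0.714) and prss59.2 (0.70, 0.725). Of these genes, pdia4 alone did not overlap between groups.

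At the same concentration and time, 8-MBaP can be set against BaP, which lacks the methyl group, and against 6-MBaP, which carries it at another position. These comparisons use the same 8-MBaP pools as the comparison with control, and p-values were adjusted over all 17794 genes of each. Against BaP, 65 genes (0.365%) were called, 30 higher (0.169%) and 35 lower (0.197%) in 8-MBaP. Against 6-MBaP, 29 genes (0.163%) were called, 20 higher (0.112%) and 9 lower (0.0506%). The count against BaP was 24 without 8-MBaP pool A, 39 without B and 38 without C, and 33 and 37 without BaP pools B and C.

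Transcripts of cyp1a averaged 2234 ± 237 normalized counts in 8-MBaP pools, against 116 ± 18.8 in BaP and 38.4 ± 7.45 in 6-MBaP pools (SD, n = 4 each). The log2 differences were 4.27 (95% interval 3.998 to 4.55, edgeR adjusted p = 7.5e-35) from BaP and 5.86 (5.54 to 6.18, edgeR adjusted p = 2.0e-39) from 6-MBaP. Transcripts of cyp1b1 averaged 263 ± 11.5 normalized counts in 8-MBaP, 32.7 ± 8.55 in BaP and 25.4 ± 7.36 in 6-MBaP pools, which gave differences of 2.99 and 3.36. Transcripts of foxq1a differed less from BaP (log2 difference 1.21, interval 0.92 to 1.49) than from 6-MBaP (2.36, interval 2.04 to 2.68), with means of 284 ± 41.4 in 8-MBaP, 123 ± 25.9 in BaP and 55.1 ± 8.74 in 6-MBaP pools. The genes sult6b1 and PKHD1L1 were also higher in 8-MBaP, by 1.37 and 2.18 over BaP and by 1.78 and 2.76 over 6-MBaP on the log2 scale, all 4 differences called.

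Other members of the pathway did not pass these tests. The log2 difference of ahr2 was 0.41 from BaP (interval 0.07 to 0.75, edgeR adjusted p = 0.40) and 0.53 from 6-MBaP (interval 0.19 to 0.88, adjusted p = 0.46). That of tiparp was 0.21 from BaP (interval -0.05 to 0.48) and 0.35 from 6-MBaP (interval 0.08 to 0.63). That of cyp1c2 was 1.58 from BaP (interval 0.74 to 2.42, adjusted p = 0.091) and 0.96 from 6-MBaP (interval 0.18 to 1.75, adjusted p = 0.68). The intervals take no account of the number of genes tested.

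Among the falls, krt4 was lower in 8-MBaP by -0.32 from BaP (interval -0.43 to -0.20) and -0.36 from 6-MBaP (interval -0.48 to -0.24) on the log2 scale, both called by edgeR. Its means were 53770 ± 932 normalized counts in 8-MBaP, 67010 ± 877 in BaP and 69040 ± 5237 in 6-MBaP pools (SD, n = 4 each). The gene crygm2d18 was lower by -0.49 and -0.51, pkp1b by -0.88 and -0.99, anxa2a by -0.34 and -0.39, and si:dkey-65b12.6 by -0.68 and -0.87, from BaP and from 6-MBaP in that order, all called. With krt4 these were the only 5 of the 43 falls called in both comparisons. Against BaP 21 of the 43 were called, and against 6-MBaP 6. Of the 34 rises, 14 were called in both, and of all 17794 genes tested, 20 were. All 34 rises were higher than in either compound, while 43 falls were lower than in BaP and 42 lower than in 6-MBaP. Both comparisons share the 8-MBaP pools in which these genes were picked, so these counts are not independent of the selection. Among the falls called against BaP but not against 6-MBaP were apoa4b.1 (-0.81 from BaP, and -0.28 with interval -0.53 to -0.03 from 6-MBaP), psmd8 (-0.59, and -0.34 with interval -0.57 to -0.12) and STMN1 (-0.53, and -0.28 with interval -0.46 to -0.10). The keratin gene cyt1 was not called in either, with differences of -0.19 (interval -0.34 to -0.04) and -0.12 (interval -0.27 to 0.04).

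Raising 8-MBaP to 1.33 µM, the next concentration, changed 16 genes (0.0899%) relative to 0.133 µM at 48 hpf, 10 higher (0.0562%) and 6 lower (0.0337%). The CYP1 genes went up again. Mean cyp1a over the series from control through 0.133 and 1.33 to 13.3 µM was 32.4, 2234, 4996 and 5731 normalized counts. The step from 0.133 to 1.33 µM was a log2 difference of 1.16 (edgeR adjusted p = 1.8e-10). Mean cyp1b1 was 25.5, 263, 629.5 and 885 normalized counts over the same series, with a step of 1.26 (adjusted p = 4.2e-08). The largest called step was that of cyp1c2, with means of 4.14, 21.6, 110.3 and 186 normalized counts and a log2 difference of 2.35 (adjusted p = 1.5e-06).

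Means of cyb5a were 154, 283, 636 and 936 normalized counts from control to 13.3 µM, with a step of 1.17 (edgeR adjusted p = 6.9e-09). Means of sult6b1 were 383, 1366, 2212 and 2440 normalized counts, with a step of 0.70 (adjusted p = 2.4e-06). Means of PKHD1L1, ENSDARG00000109310, gstp1.2 and tiparp also rose over this step, by 0.75, 0.60, 0.68 and 0.60 on the log2 scale (adjusted p = 0.0004, 0.0034, 7.3e-06 and 0.032). The step of foxq1a was 0.59 and missed the threshold (adjusted p = 0.051). The steps of ahr2 (0.16, interval -0.17 to 0.49), hbbe3 (-0.13, interval -0.41 to 0.16) and muc5.2 (-0.13, interval -0.60 to 0.34) were not called.

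Of the 43 falls at 0.133 µM, 13 were lower again at 1.33 µM and 1 was called, with a median step of 0.145. Of the 34 rises, 25 were higher again and 8 were called, with a median step of 0.35. This comparison shares the 0.133 µM pools with the comparison against control, so these steps are not independent of how the genes were picked. The called fall was and2, with means of 2397, 1760, 1039 and 719 normalized counts over the series (step of -0.76, edgeR adjusted p = 6.6e-07). The steps of the next falls were not called. Means of krt4 were 66830, 53770, 45590 and 41920 normalized counts (step of -0.24, interval -0.36 to -0.12, adjusted p = 0.11). Means of crygm2d18 were 4198, 3005, 3360 and 2836 normalized counts, with a step of 0.16 (interval -0.01 to 0.34). Means of apoa4b.1 were 6460, 3732, 3694 and 3747 normalized counts, with a step of -0.01 (interval -0.27 to 0.24). The keratin gene krt1-19e and the genes zgc:136930, linc.pou2af1 and si:dkey-183i3.5 were called lower at 1.33 than at 0.133 µM (log2 differences of -0.75, -0.69, -0.91 and -0.51), while at 0.133 µM their log2FC from control was -0.29, 0.04, -0.11 and 0.19, with no call.

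**Figure D4:**
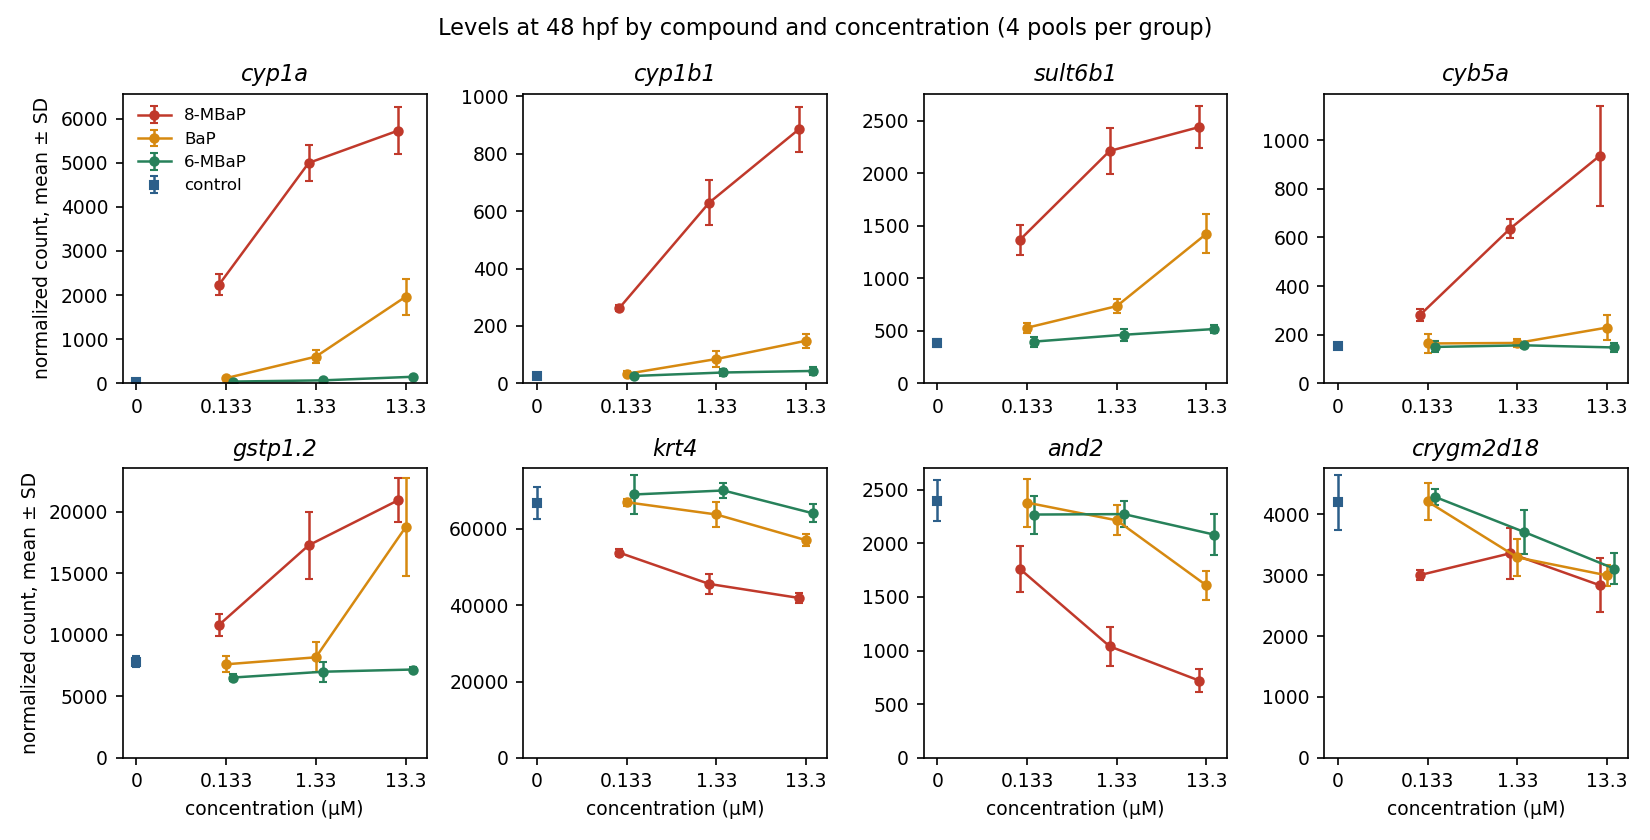
Mean normalized counts at 48 hpf in control pools and over the concentration series of each compound, in µM, with 1 SD over 4 pools as error bars. Concentrations are evenly spaced on the x axis, and the y axis starts at 0. At 0.133 µM cyp1a averaged 2234 normalized counts in 8-MBaP, 38.4 in 6-MBaP and 116 in BaP pools.

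A comparison that uses none of the 8 libraries set 8-MBaP pools at 1.33 µM against the BaP and 6-MBaP pools at 0.133 µM, so that concentration and compound both differ. It was added after the data had been seen. It called 141 of 17794 genes (0.792%), 92 higher (0.517%) and 49 lower (0.275%). Of the 34 rises at 0.133 µM, all 34 were also higher there and 23 were called, with a median log2 difference of 1.29. Of the 43 falls, 42 were also lower and 14 were called, but the median was -0.27, and 11 were under 0.1 in size. Over all genes tested, 50.6% had a positive difference. The lens list had a median of -0.11, the keratin list of -0.12 and the early response list of 0.03.

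At 72 hpf the same exposure and control were sampled again in 8 other pools from the same plates. There, 46 of 19211 genes (0.239%) were called, 30 higher (0.156%) and 16 lower (0.0833%). Of the 34 rises at 48 hpf, 33 were in the same direction and 15 were called at 72 hpf, with a median log2FC of 0.59. Of the 43 falls, 32 were in the same direction and 7 were called, with a median of -0.24. Over the 17794 genes tested at 48 hpf, 49.9% had a positive log2FC at 72 hpf.

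Transcripts of cyp1a were at 2689, 2962, 3550 and 3392 normalized counts in exposed and 40.8, 26.7, 25.4 and 29.4 in control pools at 72 hpf (log2FC 6.70, edgeR adjusted p = 1.4e-53). The other rises called at both times were cyp1b1 (3.94 at 72 hpf), foxq1a (2.46), si:ch211-207n23.2 (2.02), PKHD1L1 (1.89), cyp1c2 (1.88), sult6b1 (1.64), ENSDARG00000109310 (1.41), si:dkey-247k7.2 (1.38), ugt1b5 (1.2), DHRS13 (1.17), cyb5a (1.09), AQP8 (0.74), dlx3b (0.70) and gstp1.2 (0.46). These are the CYP1 genes, conjugating and reducing enzymes, 2 transcription factors, the aquaporin named through human AQP8, and genes whose role is not certain. The prostaglandin synthase genes ptgdsb.1 and ptgdsb.2 had log2FC values of 0.46 and 0.31 at 72 hpf and were not called.

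The falls called at both times were 3 keratins, a desmosomal gene, 2 annexins and an uncharacterized gene. They were krt4 (-0.69 at 72 hpf), cyt1 (-0.55), krt15 (-1.33), pkp1b (-1.05), anxa1c (-0.70), anxa2a (-0.56) and si:dkey-65b12.6 (-1.34), all on the log2 scale. Mean krt4 was 30630 normalized counts in exposed and 49610 in control pools at 72 hpf, and mean krt15 was 250 in exposed and 631 in control pools. The lens list had a median log2FC of -0.27 at 72 hpf, with 2 genes called lower, and crygm2d18 had a log2FC of -0.24 with no call. Of the 43 falls, 12 had a log2FC under 0.1 in size at 72 hpf, as had 7 of the 34 rises. Among the 12 were apoa4b.1 (-0.02), lyz (0.08), FABP7 (0.07), and2 (0.09) and znf1156 (0.00).

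Whether the effect at 72 hpf differed from that at 48 hpf was tested by an interaction term, fitted to 19211 genes. No gene (0%) was called by edgeR, 1258 had an unadjusted p under 0.05, and DESeq2 called 0 with 1180 under 0.05. The interaction of krt4 was -0.38 (interval -0.57 to -0.18, edgeR adjusted p = 0.26), that of PKHD1L1 -0.99 (interval -1.42 to -0.56, adjusted p = 0.14), that of and2 0.54 (interval 0.27 to 0.81, adjusted p = 0.26) and that of apoa4b.1 0.78 (interval 0.38 to 1.17, adjusted p = 0.26). A gene called at 48 hpf and not at 72 hpf was thus not shown to differ between times. The count of interactions was 3 without exposed pool A of 72 hpf and 1 without control pool A of 48 hpf.

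**Figure D5:**
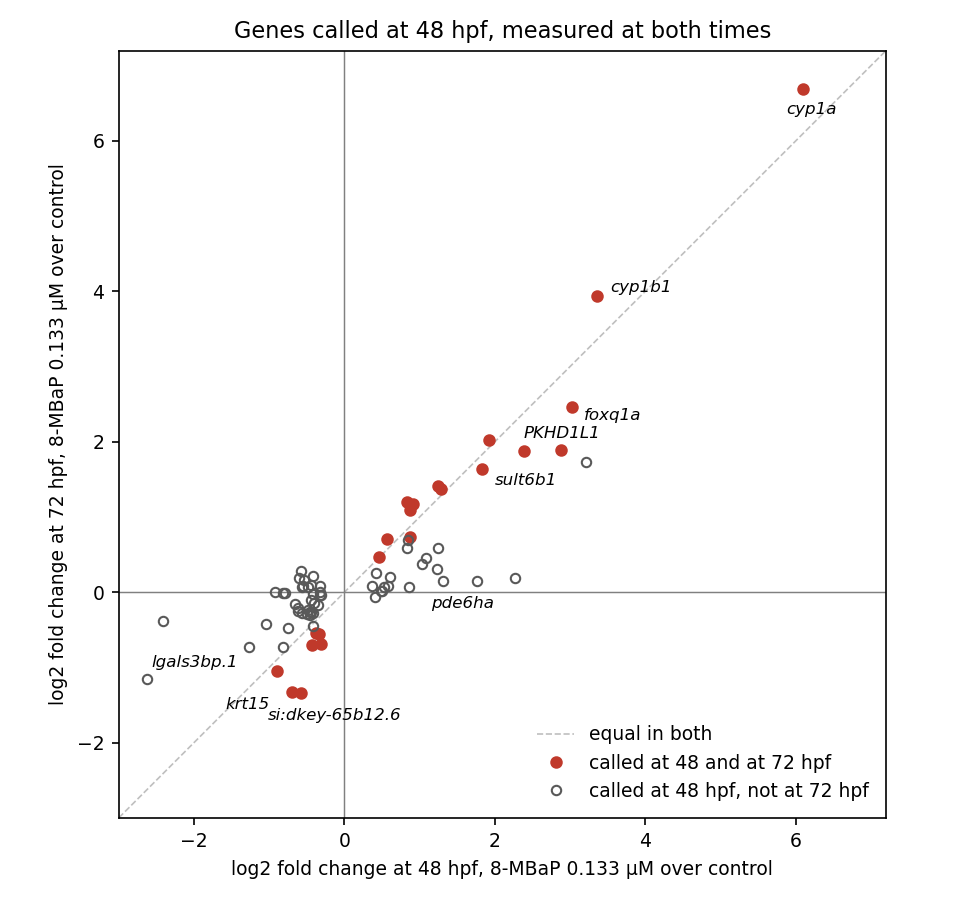
Log2FC of the 77 genes called at 48 hpf, 8-MBaP at 0.133 µM over control, at 48 hpf on the x axis and in other pools at 72 hpf on the y axis, with the dashed line where both are equal. Filled points are called at both times, 15 above 0 and 7 below 0, and cyp1a lies at 6.10 and 6.70.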

How the data were processed

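The authors deposited counts per gene for 80 libraries, without normalization, from 3′ end reads that a company mapped and demultiplexed. The aligner, genome build, strand setting and use of molecular identifiers are not given in the sources used here. Column names gave the group of every library. Of 32520 IDs, 16608 had a zebrafish symbol in the name tables and 8042 got one from the only RefSeq candidate, and 14 called genes are named through a human counterpart.

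A gene needed 5 reads in each of 2 libraries or more to be tested, which was done with edgeR 4.0.16 (R 4.3.3), TMM and the quasi-likelihood test, on all 40 libraries of 48 hpf, or all 80 for values at 72 hpf and the interaction. At 48 hpf the filter, the threshold of 0.05 and the fit within a time follow the study, which used DESeq2. The values at 72 hpf, filtered and fitted with both times together, do not. Intervals are at 95%, from standard errors. The code was tested on simulated data. Alternatives were DESeq2 1.42.0, RLE size factors, filterByExpr, no filter, only the compared groups, thinned counts, the pool letter as a block, and each library left out. Leaving out control pools A and B, and the comparisons at 72 hpf and of 1.33 µM with other compounds, were added after the data were seen.

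Genes named were the 15 largest rises and falls among called genes of at least 20 normalized counts in the higher group, all tested AHR pathway genes, up to 4 of each of 20 other lists, and 5 each way in other comparisons. Further called genes are named so that all are accounted for. Members and lists were chosen with earlier results of these data known. No duplicated library was found. The result of 1 list is not reported here.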

Additional observations from a re-analysis of the deposited data

Results flagged for a closer look

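In 6 of 149 groups of 4 pools, over 76 genes, 1 pool stood apart from the other 3 by more than the 95% limit of Dixon's gap test. Chance gives about 1 in 20 groups, which is 7.45 here. The RDH8 transcript had 2.252 normalized counts in control pool C, against 9.602 to 10.5 in the other control pools. The si:dkey-247k7.2 transcript had 95.52 in control pool A, against 51.32 to 57.61. The arnt2 transcript had 838.2 in exposed pool B, against 712.5 to 732.9 in the other exposed pools. The antiproliferative gene btg2 had 177.6 in control pool A, against 269.1 to 278.5. The trypsinogen gene prss59.1 had 10.05 in exposed pool A, against 2.73 to 3.688. The mitotic kinase gene cdk1 had 361.9 in exposed pool B, against 298.1 to 308.5. Of these 6 genes, RDH8 and si:dkey-247k7.2 were called between exposed and control embryos.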

How the results depend on the processing

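The comparison with control gave 77 calls, 152 by DESeq2, 175 with no filter on low counts, 83 with the replicate block, 31 without control pools A and B, and 43 to 86 with each library left out. DESeq2 gave an adjusted p for 29 of the 34 rises and 40 of the 43 falls, and called all of these. Against BaP the 65 calls became 187 by DESeq2, 163 with no filter, 65 with the replicate block, and 24 to 67 with a library left out. Against 6-MBaP the 29 calls became 92 with no filter, 53 with only the compared groups, 30 with the block, and 21 to 33 with a library left out. For 1.33 against 0.133 µM the 16 calls became 29 by DESeq2, 55 with no filter, 32 with only the compared groups, 15 with the block, and 12 to 16 with a library left out. The interaction with time had 0 calls, 41 with no filter, 5 with only the compared groups, 0 with the block, and 0 to 3 with a library left out.

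Same-letter pools of the exposed and control groups correlated at -0.0279 to -0.00945 after group means were removed, so the letters were not shown to pair them. The sign of nqo1 (log2FC 0.00) turned to -0.0024 by DESeq2, -0.0014 with RLE size factors, -0.0046 with the block, and -0.098, -0.097 and -0.060 without exposed pool D, control pool B or control pool C, in a range of -0.098 to 0.13 over the fits with a library left out. The cause was not tested. Of the other values of single genes under an alternative, 151 lost a call, 10 gained one and 1525 kept their side of the threshold. Exposed libraries held more counts than control libraries, and counts thinned to 1 total gave 72 calls, with 28 of the rises and 39 of the falls among them.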

Other observations

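Ribosomal protein genes, a group picked after its values had been seen, leaned to lower values in exposed pools at 48 hpf. Of 84 tested, 66 had a negative log2FC, with a median of -0.11, 3 were called lower and 1 higher. Over all genes tested, 50.7% had a positive log2FC, 0.242% were called lower and 0.191% higher. In the comparison that uses none of these 8 libraries the median was 0.05. Proteasome subunit genes, picked the same way, had a median log2FC of -0.09 over 43 tested genes, 34 of them negative, and 0.04 in that comparison. The crygm2d crystallin genes had medians of -0.34 at 48 hpf against control and -0.14 in that comparison.

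Embryos exposed to 6-MBaP at 0.133 µM give the change from 48 to 72 hpf in libraries whose means enter no comparison with control here. Of the 34 rises, 21 went up over this day of development, and of the 43 falls, 21 went down, where 50.4% of all genes tested went up. Of 60 called genes that could be placed in RefSeq gene order, those within 5 genes of another called gene were the ptgdsb pair, ENSDARG00000109310 with gstp1.2, cyt1 with krt91, and 6 genes of the crygm2d cluster, and the members of each of these groups moved in 1 direction.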
